A study of Mus musculus with 6 samples.

Results

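The cadherins and catenins of the cell junction were followed through a 48 h treatment of mouse melanoblasts with a BRD9 inhibitor. The members were 10 genes chosen by symbol: the cadherin genes Cdh1, Cdh2, Cdh3, Cdh4, Cdh11, Cdh13 and Cdh19 and the catenin genes Ctnnb1, Ctnna1 and Ctnnd1. Each symbol matched 1 gene ID, so all 10 were found among the 35275 IDs of the count table. The rule uses no measured value, but the symbols were chosen with earlier results of these data known.

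The cells were Melb-a, an immortal melanoblast line derived from skin of C57BL/6J mice. All 6 cultures were moved from growth medium to a differentiation medium of DMEM with 10% serum, 2 nM of the melanocortin analog NDP-alpha MSH and 200 nM of the phorbol ester PMA. Of these, 3 received the vehicle DMSO and 3 received 10 µM iBRD9, an inhibitor of the BRD9 bromodomain, BRD9 being part of the non-canonical SWI/SNF chromatin remodeler. Only 1 line, 1 compound and 1 dose were used, so effects through BRD9 and other effects of the compound cannot be told apart. The labels count the samples as independent without saying what was prepared separately, so the p-values measure the spread between these samples.

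Cadherins are calcium-dependent adhesion proteins that bind their like on the next cell. In classical cadherins the cytoplasmic tail holds p120-catenin (Ctnnd1), which keeps the cadherin at the membrane, and beta-catenin (Ctnnb1), which binds alpha-catenin (Ctnna1) and through it the actin skeleton. Beta-catenin that is not bound to cadherin is degraded, or enters the nucleus as the effector of Wnt signalling. In skin, E-cadherin (Cdh1) holds melanocytes to keratinocytes, while N-cadherin (Cdh2) is typical of fibroblasts and of melanocytes that have left the epidermis. The question here was which of these transcripts differed between iBRD9 and DMSO.

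Libraries held 22846391 to 29680952 counts. Levels are in CPM, counts divided by the library total on a common scale, after TMM scaling, which sets libraries level on the bulk of their genes. A gene counts as called where edgeR's quasi-likelihood test gave an adjusted p under 0.05. Of 13602 tested genes, 8262 were called. The melanocyte markers Dct, Tyr, Tyrp1, Pmel, Mlana, Mitf, Sox10 and Kit were all present, summing to 15810 to 17930 CPM with DMSO and 15090 to 16620 CPM with iBRD9. Within that sum Dct was higher, Tyr (6.12-fold), Sox10 (1.89-fold), Tyrp1 and Mlana were lower, and the other 3 did not pass. Of the keratinocyte list Krt5, Krt1, Ivl and Lor had 0 counts in every library, while Krt10 had 83 to 133 counts and the sum over the list was 3.50 to 4.21 CPM with DMSO and 3.64 to 4.35 CPM with iBRD9. Of the immune list Ptprc and Cd3e had 0 counts, while Lyz2 and Cd68 brought the sum to 17.9 to 22.8 and 16.5 to 17.8 CPM, with Cd68 lower and Csf1r higher (0.279 ± 0.154 to 1.70 ± 0.187 CPM). The endothelial list summed to 1.46 to 1.61 and 4.41 to 6.20 CPM, and its 1 tested gene, Kdr, rose 4.19-fold. The part of these genes' cells in the results on the members was not tested. DMSO replicate 1 differed from replicates 2 and 3 (chi-square per degree of freedom between counts 29.2 and 37.5, against 3.06 between the latter). To a lesser degree iBRD9 replicate 1 also differed from iBRD9 replicates 2 and 3 (6.33 and 6.33, against 1.93). Over 1794 genes at least 2-fold higher with iBRD9 than in DMSO replicates 2 and 3, the median position of DMSO replicate 1 lay 0.428 of the log2 distance towards iBRD9. Over 874 genes at least 2-fold lower it lay 0.209 of that distance. For the called members it lay at 0.013 (Cdh1), -0.0454 (Cdh2), -0.186 (Cdh19) and -0.00281 (Ctnnd1) of the distance, which is level with or beyond the other DMSO libraries on the side away from iBRD9. These members were called with DMSO replicate 1 included, which disfavours genes where it lies near iBRD9. Their positions therefore cannot be set against those medians, whose genes were called without it. Ctnna1, called only without it among these fits (-0.26), had 548 CPM there, 625 and 649 CPM in the other DMSO libraries and 516 to 551 CPM with iBRD9.

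Of the 10 members, 8 had enough counts to be tested, 3 fell (Cdh1, Cdh19 and Ctnnd1), 1 rose (Cdh2) and 4 did not pass the test (Cdh11, Cdh13, Ctnnb1 and Ctnna1). Cdh3 and Cdh4 were left out of the test for low counts. Among all tested genes 60.7% were called, 30.9% lower and 29.8% higher with iBRD9, so the number of members called was not above the background. The groups did not overlap for 5 of the 8 (Cdh1, Cdh2, Cdh19, Ctnnb1 and Ctnnd1), against 68.0% of all tested genes. The median log2 fold change was -0.27 over the 8 tested members and 0.01 over all tested genes. Cdh1 and Cdh19 were called and at least 2-fold lower, as were 5.46% of tested genes, and no member was among the 9.41% called and at least 2-fold higher.

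**Figure D1:**
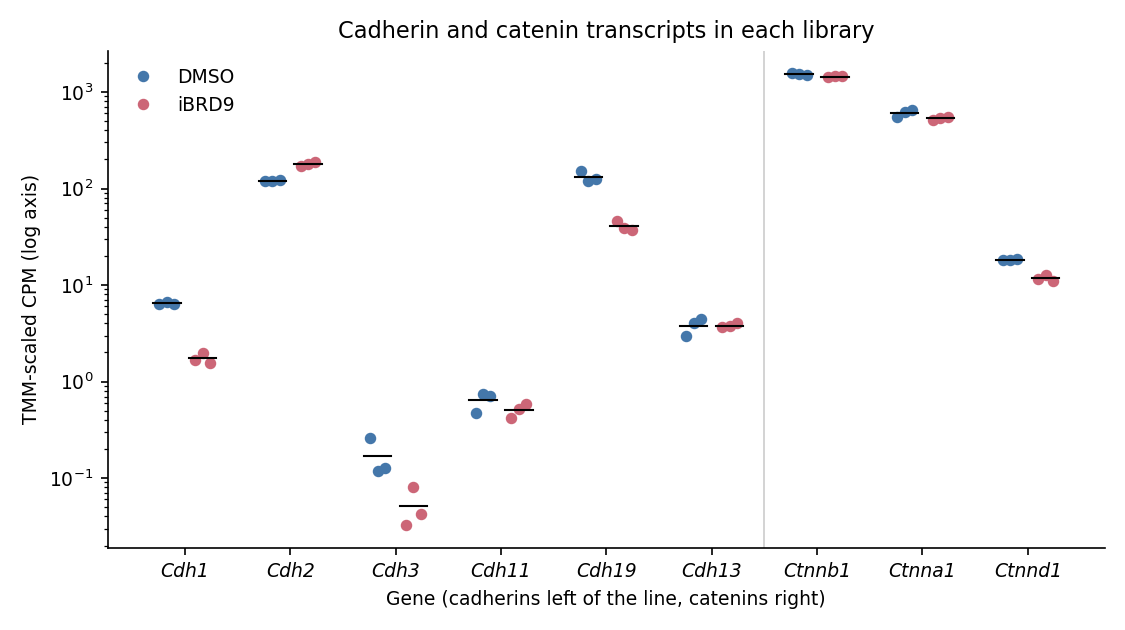
TMM-scaled CPM (log axis) of the 9 members with any counts, by gene, in the 3 DMSO libraries (blue) and the 3 iBRD9 libraries (red); points are libraries and black bars are group means. Cdh1 and Cdh19 lie lower and Cdh2 higher in every iBRD9 library, while Ctnnb1, at 1422 to 1561 CPM, differs little between the groups; Cdh4 had 0 counts and is not drawn.

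E-cadherin transcripts fell 3.71-fold. Cdh1 (ENSMUSG00000000303) had 6.38, 6.66 and 6.32 CPM under DMSO against 1.66, 2.00 and 1.56 CPM under iBRD9, from 147 to 169 counts and from 37 to 51 counts. The groups did not overlap, and the SD of the 3 DMSO libraries was 0.183 CPM. The log2 fold change was -1.89 (SE 0.148, 95% interval -2.23 to -1.55, adjusted p = 2.65e-05 in edgeR). Without DMSO replicate 1 it was -1.91. In a bulk sample, fewer cells with the transcript and less of it per cell cannot be told apart. Per length, Cdh1 was already a minor cadherin with DMSO, as described below with the other levels.

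N-cadherin moved the other way. Cdh2 (ENSMUSG00000024304) was at 118.5, 118 and 123 CPM with DMSO and at 173, 181 and 189 CPM with iBRD9. Every iBRD9 library was above every DMSO library, and means rose from 120.0 ± 2.73 to 181 ± 8.14 CPM (SD, n = 3). This was a 1.51-fold rise, with a log2 fold change of 0.59 (SE 0.057, 95% interval 0.46 to 0.72, adjusted p = 6.67e-05 in edgeR). It was 0.57 without DMSO replicate 1 and 0.70 with libraries scaled by their totals alone.

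Because the 2 genes went in opposite directions, their ratio within a library moved further than either, and a ratio within a library does not depend on how libraries are scaled. There were 18.6, 17.8 and 19.5 Cdh2 counts per Cdh1 count with DMSO, and 104, 90.6 and 121 with iBRD9. The log2 ratio went from 4.22 ± 0.067 to 6.71 ± 0.208 (SD, n = 3), a 5.62-fold shift with no overlap (exact permutation p = 0.1, two-sided, the smallest that 3 against 3 libraries allow; 0.125 adjusted over the 5 ratios computed). These ratios are of counts, not corrected for the lengths of the 2 transcripts, so their size within a group is not a ratio of molecules. Their shift between groups is free of length only if each gene's transcripts are the same in both groups, which was not tested.

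P-cadherin and R-cadherin, the other classical members of the same type, were near or under the limit of detection. Cdh3 (ENSMUSG00000061048), which lies next to Cdh1 in the RefSeq order of protein-coding genes (assembly GRCm38.p6) and is best known from basal keratinocytes and the hair follicle, had 6, 3 and 3 counts in the DMSO libraries and 1, 2 and 1 in the iBRD9 libraries. These counts are too few for a fold change, and without a filter on low counts Cdh3 did not pass in edgeR (adjusted p = 0.156) or in DESeq2 (adjusted p = 0.239). Cdh4 (ENSMUSG00000000305) had 0 counts in all 6 libraries. The limit that a count of 0 allows, taken as 3 counts per library, was 0.0973 to 0.130 CPM, and it covers counting error only.

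Among cadherins of the second type, Cdh19, a cadherin of neural crest cells and of early Schwann cells, had a large fall. It stood at 152, 121 and 126 CPM with DMSO and at 46.6, 39.1 and 37.5 CPM with iBRD9. Replicate 1 was the highest library in each group, and the groups did not overlap. Cdh19 (ENSMUSG00000047216) fell 3.23-fold, from 133 ± 16.6 to 41.0 ± 4.88 CPM (SD, n = 3), with a log2 fold change of -1.69 (SE 0.113, 95% interval -1.95 to -1.43, adjusted p = 1.34e-05 in edgeR). Without DMSO replicate 1 it was -1.59. Summed over the 6 Schwann cell markers reported here, the level was 122 to 181.0 CPM with DMSO and 49.5 to 53.8 CPM with iBRD9. Most of it came from S100b (91.0 to 26.4 CPM), Mbp (38.6 to 13.2 CPM) and Foxd3 (25.46 to 11.45 CPM). Of these 6, 5 were tested and all 5 were lower, with Gfap (0.873 to 0.446 CPM) and Egr2 (1.25 to 0.229 CPM) at low levels. Pmp22 had 1 to 5 counts per library and was not tested. The part of Schwann cells, or of such a state, in the value of Cdh19 was not tested.

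Cdh11, a mesenchymal cadherin, was close to the detection limit at 0.477, 0.749 and 0.716 CPM with DMSO and 0.422, 0.520 and 0.591 CPM with iBRD9. The groups overlapped. Its log2 fold change of -0.36 had a 95% interval from -1.07 to 0.35 (adjusted p = 0.337 in edgeR), so neither a 2-fold fall nor a small rise can be excluded at 11 to 19 counts per library. Fibroblasts are another cell type with Cdh2 and Cdh11. Summed fibroblast markers went from 75.2 to 99.7 CPM with DMSO to 131 to 145 CPM with iBRD9, and most of that sum was Dcn (51.2 to 120 CPM). Of 6 such markers 5 were tested, with Dcn (1.23) and Col1a1 (2.36) higher and Col1a2 (-1.95) lower on the log2 scale. Pdgfra (0.13) and Lum (-0.06) did not pass, and Col3a1 had 0 to 7 counts. Whether fibroblasts were present, and their part in the level of Cdh2, was not tested.

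Cdh13, T-cadherin, differs from the rest: it has no cytoplasmic tail, is tied to the membrane by a lipid anchor and binds no catenin. It was at 2.95, 4.02 and 4.42 CPM with DMSO and at 3.63, 3.72 and 4.01 CPM with iBRD9. The DMSO libraries spanned the iBRD9 libraries on both sides. The log2 fold change was -0.01 (SE 0.174, 95% interval -0.41 to 0.39, adjusted p = 0.973 in edgeR), and its sign differed from this in 7 of 12 alternative settings, none of which called it.

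**Figure D2:**
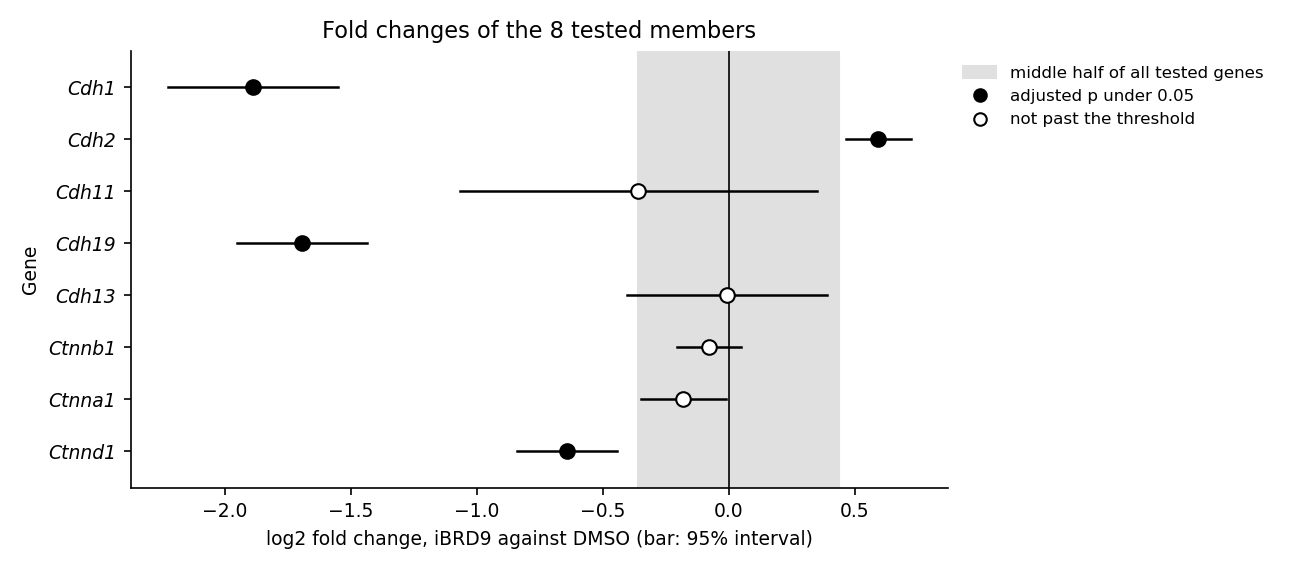
Log2 fold change of iBRD9 against DMSO for the 8 tested members (x axis), with bars for the 95% interval from the edgeR fit; filled points passed an adjusted p of 0.05 and the grey band holds the 25th to 75th percentile of all tested genes. Cdh1 (-1.89), Cdh19 (-1.69), Ctnnd1 (-0.64) and Cdh2 (0.59) lie outside the band, and the other 4 lie within or at its edge.

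Levels can be compared between genes only per length, and for this the CPM were divided by the longest annotated transcript in kilobases. With DMSO the order was Ctnnb1 (422 ± 7.93 CPM per kilobase, SD, n = 3), Ctnna1 (163 ± 14.1), Cdh19 (34.0 ± 4.23), Cdh2 (24.8 ± 0.561), Ctnnd1 (2.89 ± 0.013), Cdh1 (1.46 ± 0.041), Cdh13 (0.832 ± 0.167), Cdh11 (0.115 ± 0.026) and Cdh3 (0.038 ± 0.018). Neighbours in that order were further apart than the spread of their libraries. With iBRD9, Cdh2 (37.4 ± 1.67) was above Cdh19 (10.5 ± 1.25), and Cdh1 (0.392 ± 0.052) was below Cdh13 (0.830 ± 0.043). The exchange of Cdh2 and Cdh19 also held with the length of all merged exons (14.9 and 31.1 with DMSO, 22.4 and 9.59 with iBRD9, in CPM per kilobase). That of Cdh1 and Cdh13 did not (0.380 ± 0.050 and 0.337 ± 0.017 with iBRD9), so their order depends on which transcripts of Cdh13 are made.

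The make-up of the cadherin transcripts changed accordingly. Over 23 cadherin genes, made of the 7 members and 16 relatives, Cdh19 held 57.9, 52.2 and 52.6% of the summed level per length in the DMSO libraries and 22.6, 19.1 and 17.8% in the iBRD9 libraries. The share of Cdh2 was 36.5, 41.4 and 41.4% with DMSO and 67.7, 71.7 and 72.6% with iBRD9. Cdh1 went from 2.34% ± 0.201 to 0.744% ± 0.108. The groups did not overlap in any of these shares. The summed level itself was 62.5 ± 4.10 CPM per kilobase with DMSO and 52.8 ± 0.784 with iBRD9 (SD, n = 3). With merged exon lengths the mean share of Cdh2 rose from 30.5 to 61.6% and that of Cdh19 went from 63.2 to 26.3%.

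**Figure D3:**
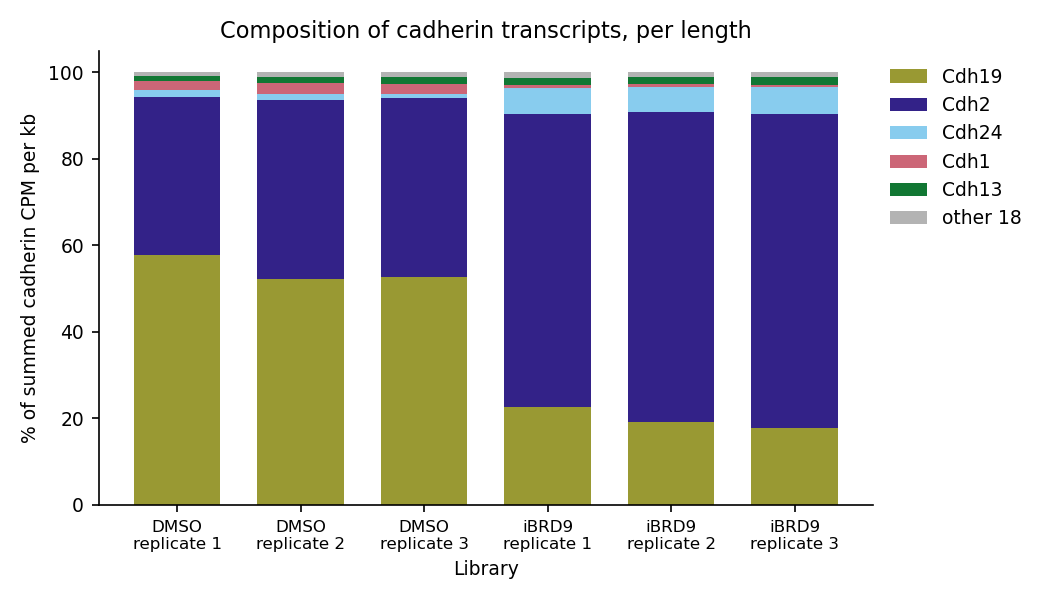
Share of each cadherin (y axis, percent of the summed CPM per kilobase of the longest transcript over 23 cadherin genes) in each of the 6 libraries (x axis). Cdh19 is the largest share in the 3 DMSO libraries (52.2 to 57.9%) and Cdh2 in the 3 iBRD9 libraries (67.7 to 72.6%); the grey part sums the 18 genes not named in the key.

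The central catenins moved little. Ctnnb1 (ENSMUSG00000006932), beta-catenin, stood at 1561, 1519 and 1506 CPM with DMSO and at 1422, 1449 and 1467 CPM with iBRD9. The iBRD9 libraries were all lower, by a fold of 1.06 between fitted means. The log2 fold change was -0.08 (SE 0.056, 95% interval -0.21 to 0.05, adjusted p = 0.242 in edgeR), and it was 0.03 with libraries scaled by their totals alone, so no direction can be given. Under the scaling used, the 95% interval reached from a fall of 0.21 to a rise of 0.05 on the log2 scale, which is not a bound on the change.

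Ctnna1 (ENSMUSG00000037815), alpha-catenin, had 548, 625 and 649 CPM with DMSO and 516, 540.3 and 551 CPM with iBRD9. DMSO replicate 1 lay within the range of the iBRD9 libraries, and the other 2 DMSO libraries lay above it. With all libraries the log2 fold change was -0.18 (SE 0.074, adjusted p = 0.0610 in edgeR). Without DMSO replicate 1 it passed at -0.26 (adjusted p = 1.38e-05), and it also passed without a filter on low counts (-0.19, adjusted p = 0.0437). Over all alternatives its adjusted p ran from 1.38e-05 to 0.331. Within libraries there were 0.351, 0.411 and 0.431 Ctnna1 counts per Ctnnb1 count with DMSO and 0.363, 0.373 and 0.375 with iBRD9, and these ranges overlapped (exact permutation p = 0.4, two-sided).

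Ctnnd1 (ENSMUSG00000034101), p120-catenin, was the catenin that fell. It stood at 18.4, 18.3 and 18.5 CPM with DMSO and at 11.5, 12.8 and 11.0 CPM with iBRD9. The DMSO libraries were almost level and the groups were clearly separate. The mean went from 18.4 ± 0.083 to 11.8 ± 0.898 CPM (SD, n = 3), a 1.56-fold fall with a log2 fold change of -0.64 (SE 0.087, 95% interval -0.84 to -0.44, adjusted p = 4.00e-04 in edgeR). The log2 ratio of Ctnnd1 to Ctnnb1 counts changed by -0.57 with no overlap (exact permutation p = 0.1, two-sided, 0.125 adjusted over the 5 ratios).

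The level of Ctnnd1 has a limit of its own. In the GENCODE annotation at hand, exons of a read-through gene on the same strand, Gm28635, cover 4482 of its 7319 exon bases (61.2%), and Gm28635 had 0 counts in every library. Whether reads in the shared exons were given to Ctnnd1 or to neither gene is not given in the sources used here, so its level per length, far under that of the other catenins, is uncertain. Its fold change compares like with like between groups but may rest on the unshared exons. For Ctnnb1 the overlap was 15.1% of exon bases, mostly with Ulk4 on the opposite strand, which had 35 to 64 counts per library against at least 34784 for Ctnnb1. No cadherin member overlapped another gene's exons (0 bases).

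The start regions of the catenin that fell and of beta-catenin, which did not pass, could be set side by side. RefSeq promoter windows (build GRCm38.p6) were on hand for these 2 of the 10 members. Each stretch below runs from 250 to 31 bases before a start site and is free of annotated exons. That of Ctnnd1 is chr2:84650771-84650990 on the minus strand, and that of Ctnnb1 is chr9:120933150-120933369 on the plus strand. Capitals mark the CG dinucleotides.
Ctnnd1: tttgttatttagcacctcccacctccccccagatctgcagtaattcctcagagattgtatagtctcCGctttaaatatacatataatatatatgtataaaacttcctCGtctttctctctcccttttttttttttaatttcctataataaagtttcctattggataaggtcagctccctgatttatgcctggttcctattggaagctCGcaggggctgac
Ctnnb1: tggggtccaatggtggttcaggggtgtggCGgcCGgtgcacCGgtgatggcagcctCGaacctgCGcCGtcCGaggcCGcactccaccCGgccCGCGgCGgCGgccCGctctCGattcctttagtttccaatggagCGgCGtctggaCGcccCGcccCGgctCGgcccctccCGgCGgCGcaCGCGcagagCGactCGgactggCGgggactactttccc
The Ctnnb1 stretch has 72.7% G and C and 29 CG dinucleotides, and that of Ctnnd1 has 38.2% and 3, where the medians over all 32851 windows are 51.8% and 5. Both strands were searched for 4 motifs. The general E-box, CANNTG, occurs in 62.1% of all windows of this length. Its form CACCTG, to which Snail and ZEB proteins bind, occurs in 15.5% of them, and its form CATGTG, to which MITF can bind, in 11.1%; both forms are also matches of the general E-box. The core to which TCF proteins bind, CTTTGA, occurs in 12.6%. Neither printed stretch held any of them (0 matches), which says only that these letters are not in these windows. Both genes have a further annotated start, whose window overlaps an annotated exon and is not printed. That of Ctnnd1 has 67.3% G and C, 24 CG dinucleotides, 1 CANNTG and 1 CATGTG, and that of Ctnnb1 has 73.6%, 38 CG dinucleotides and 0 matches, so the contrast in base composition holds for the printed stretches and is smaller between the other windows. Which start these cells use was not tested.

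Further cadherins from the wider family were mostly silent. Of 16 relatives, 13 had too few counts to be tested, 4 of them with 0 counts in every library. Cdh24, a cadherin of the second type that binds catenins, rose 3.92-fold, from 3.60, 2.76 and 2.06 CPM with DMSO to 11.2, 10.3 and 11.5 CPM with iBRD9. Its groups were far apart, the log2 fold change was 1.97 (SE 0.179, adjusted p = 5.32e-05 in edgeR), and its share of the summed cadherin level went from 1.28% ± 0.293 to 5.97% ± 0.259. Cdh17 fell at a very low level (0.665 ± 0.031 to 0.289 ± 0.008 CPM, -1.19, adjusted p = 0.00767), a call lost with DESeq2 (adjusted p = 0.0554). Cdh15 did not pass (adjusted p = 0.117).

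Relatives of the catenins changed in both directions. Of 10 genes, 6 were tested and all 6 were called, 4 higher and 2 lower, with 4 to 6 called over the alternatives, against 60.7% called among all tested genes. Arvcf, which is of the p120 family and binds cadherin tails at the same place as Ctnnd1, rose from 4.57 ± 0.726 to 10.3 ± 0.624 CPM, or 1.16 on the log2 scale (adjusted p = 2.03e-04). Plakoglobin (Jup), which can take the place of beta-catenin in the complex, rose by 0.45 (adjusted p = 0.0307), a call lost without DMSO replicate 2 (adjusted p = 0.0922), without iBRD9 replicate 3 (0.30, adjusted p = 0.124) or with DESeq2 (adjusted p = 0.0572). Pkp3, a plakophilin of desmosomes, rose at a low level (0.554 ± 0.044 to 1.68 ± 0.357 CPM, 1.58, adjusted p = 0.00106) and was called in all 12 alternatives. The alpha-catenin relative Ctnnal1 rose by 0.44. The armadillo protein gene Pkp4, at a much higher level in CPM than Arvcf, fell from 294 ± 20.7 to 242 ± 5.07 CPM (-0.28). Ctnna3, at 0.586 ± 0.133 and 0.314 ± 0.030 CPM, was the other lower gene, and its call was lost in 8 of the 10 alternatives that tested it, among them without DMSO replicate 1 and without any 1 of the iBRD9 libraries.

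Of 22 genes that join cadherins to actin or sit beside them, 21 were tested, 7 rose, 7 fell and 7 did not pass (median log2 fold change 0.06). The share called, 66.7%, was near the 60.7% of all tested genes. The nectins, a second class of adhesion protein at the same junction, were among the rises: Nectin1 had 6.55, 4.73 and 4.13 CPM with DMSO and 12.5, 13.1 and 13.4 CPM with iBRD9 (1.34), Nectin2 rose by 0.90 and Nectin3 by 0.26 on the log2 scale. Vinculin (Vcl), which is recruited to alpha-catenin under tension, rose by 0.54, the actin crosslinker gene Actn4 by 0.58 and the actin elongation factor gene Evl by 1.06. Lower were the receptor phosphatase gene Ptprf (-1.20), zyxin (Zyx, 194 ± 35.2 to 86.9 ± 1.96 CPM, -1.16) and Lima1 (-1.05), whose protein bridges alpha-catenin and actin. The other falls were Vasp (63.5 ± 0.847 to 39.5 ± 2.34 CPM, -0.68), Limd1 (-0.53), Ptprm (-0.43) and Iqgap1 (-0.22). The remaining rise, Tjp1 (0.21), lost its call in 5 of 12 alternatives, and Iqgap1 lost its call with library totals alone. Without DMSO replicate 1, 8 rose and 8 fell, and with library totals alone 9 rose and 6 fell.

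Among genes that cut or clear cadherins, 8 of 12 tested fell and 3 rose (median log2 fold change -0.50), against 30.9% lower and 29.8% higher among all tested genes. Over the alternatives 9 to 11 were called, with 7 or 8 lower and 2 or 3 higher. Cbll1 (-0.31), which was among the falls, lost its call in 4 of 12 alternatives. Psen2 (-0.83) and Psenen (-0.73), subunits of the gamma-secretase that cleaves cadherin within the membrane, fell, as did the kinase gene Src (-0.97), which drives junction turnover. Furin, which removes the cadherin propeptide, rose by 0.35 and the endocytic adaptor gene Numb by 0.50. Adam10, the protease that sheds E-cadherin and N-cadherin, rose by 0.21 (adjusted p = 0.0199), a call lost without any 1 of DMSO replicates 2 and 3 and the iBRD9 libraries (adjusted p = 0.0518 to 0.0908) and kept without DMSO replicate 1.

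Of 9 genes listed here as repressors that bind E-boxes, some of them known for silencing Cdh1, 5 were tested. Of these, 4 were lower and 1 higher, where 30.9% of all tested genes were lower and 29.8% higher. Zeb1 went from 8.99 ± 2.02 to 2.30 ± 0.460 CPM (log2 fold change -1.95, adjusted p = 1.32e-04) and Snai2 from 42.9 ± 6.57 to 21.7 ± 0.771 CPM (-0.98, adjusted p = 1.65e-04). Zeb2 (-0.53) and Tcf4 (-0.63) were also lower, and Tcf3 was higher (0.34). Snai1, Snai3, Twist1 and Twist2 had 0 to 5 counts per library. Protein levels and binding were not measured.

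Of 17 tested genes that degrade beta-catenin or act with it in the nucleus, 4 rose, 4 fell and 9 did not pass (median -0.03). The share called, 47.1%, was below the 60.7% of all tested genes, a difference that was not tested. Amer1, of the destruction complex, rose from 5.41 ± 0.653 to 14.4 ± 0.839 CPM (1.42), and Ctnnbip1, which blocks the binding of beta-catenin to TCF proteins, rose by 0.89. Bcl9, a nuclear coactivator of beta-catenin, rose by 0.65. The kinase gene Csnk1a1, which primes beta-catenin for degradation, fell (-0.85), as did Fbxw11 (-0.23, not called with library totals alone, adjusted p = 0.0588) and the nuclear partner gene Lef1 (5.06 ± 0.224 to 2.84 ± 0.510 CPM, -0.82). The remaining lower gene, Tcf7l1 (-0.22, adjusted p = 0.0406), lost its call in 10 of 12 alternatives, and 9 of the 12 gave 4 higher and 3 lower. Without DMSO replicate 1, 12 were called, 5 higher and 7 lower, and with library totals alone 6 rose and 2 fell. Axin2, a common readout of the pathway, had 1 to 8 counts per library and was not tested.

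Desmosomal genes were nearly absent. Of 9 genes, 5 had 0 counts in every library and 1 was tested, Perp (0.816 ± 0.335 to 0.383 ± 0.081 CPM, adjusted p = 0.0386), whose call was lost in 8 of the 11 alternatives that tested it.

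**Figure D4:**
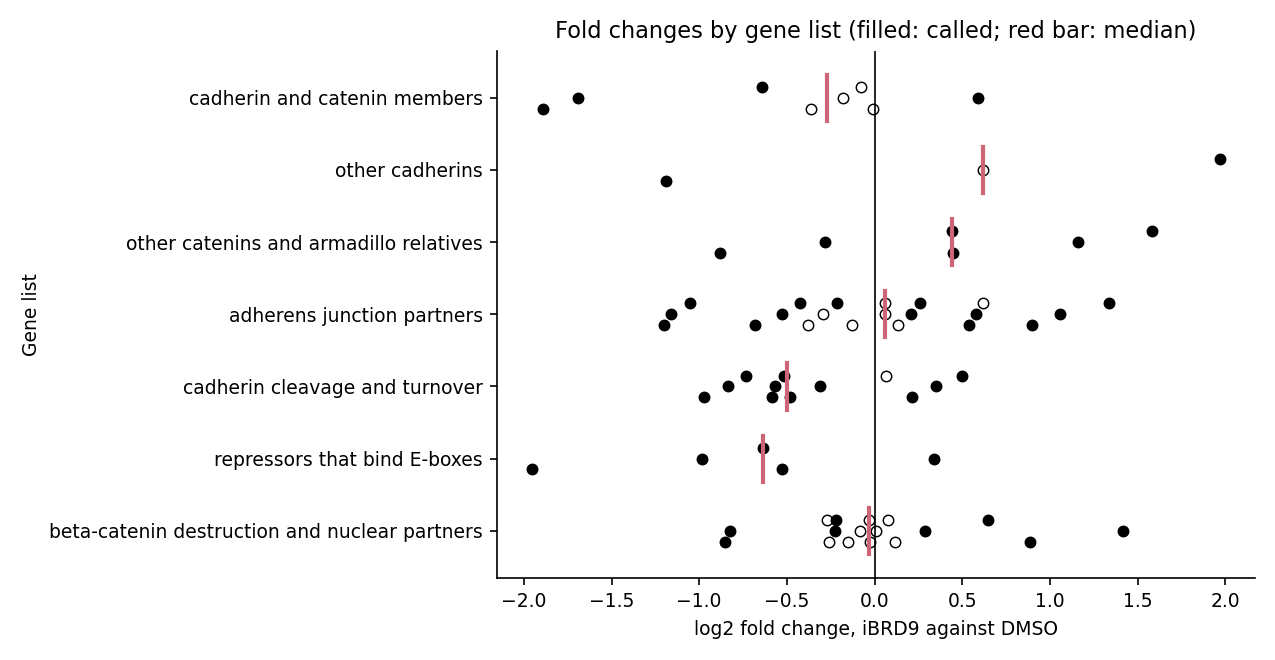
Log2 fold change of iBRD9 against DMSO (x axis) for every tested gene of the members and 6 further lists (y axis; the desmosome list, with 1 tested gene, is not drawn); filled points were called, open points were not, and red bars are list medians. The drawn medians run from -0.63 for the E-box repressors to 0.62 for the 3 tested further cadherins, and the cadherin and catenin members lie at -0.27.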

How the data were processed

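RNA was measured by sequencing of poly(A)-selected libraries in 6 Melb-a samples, 3 with DMSO and 3 with iBRD9, grouped by their labels. The deposited values are raw read counts per Ensembl gene ID, used unchanged. The submitters' processing notes list CASAVA 1.8.2, Bowtie2 2.4.5 and the build GRCm39. How reads were assigned to genes, with which annotation and strand setting, is not given in the sources used here, and the kit in the labels' protocols is not described as marking strand. Symbols were matched for 34490 of 35275 IDs.

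The whole table was fitted in edgeR 4.0.16 (R 4.3.3) with filterByExpr (minimum count 10), TMM scaling and the robust quasi-likelihood F-test on treatment alone, with Benjamini-Hochberg adjustment over all 13602 tested genes. The biological coefficient of variation was 0.0921. The standard error is the log2 fold change divided by the square root of F, and intervals are 95%. Lengths come from GENCODE M21, of an older build than the counts, so gene coordinates are not given. Tests were run first on simulated counts over 13523 genes for iBRD9 against DMSO: all 100 genes changed 2-fold and 80 of 100 changed 1.5-fold were recovered, with 3 false calls. The changed genes were drawn from those at a mean of at least 1 CPM. Every gene had the same biological coefficient of variation, and no library deviated as DMSO replicate 1 does. These rates therefore do not carry over to the measured libraries or to low members such as Cdh11. Within each group no libraries were duplicates (chi-square per degree of freedom 1.93 to 37.5), and pairs across the groups were not compared in this way.

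The members and lists were chosen with earlier results of these data known. Named genes are all members, all E-box repressors, and, per further list, the 3 largest called rises and 3 largest called falls at a mean log2 CPM of at least 1. Nectin3, Vcl, Actn4, Tjp1, Vasp, Limd1, Ptprm, Iqgap1, Cbll1, Cdh15, Cdh17, Pkp3, Ctnna3, Tcf7l1, Axin2, Perp and the markers named were added after their values were seen. Some Schwann cell markers of the list are not reported here. Alternatives were DESeq2 size factors, library totals alone, DESeq2 1.42.0, no filter, 1 CPM in 3 libraries, the replicate number as a block, and leaving out each library. Figures used matplotlib 3.10.9.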

Additional observations from a re-analysis of the deposited data

How the results depend on the processing

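The number of genes called stayed within 1.5 times of 8262 in all 12 alternatives, from 6865 without DMSO replicate 2 to 10311 without DMSO replicate 1, and the number of members called was 4 or 5. Over 95 results of the 8 tested members, 93 kept their side of the threshold and 2, both of Ctnna1, passed where they had not. Cdh1 ran from -2.00 to -1.78, Cdh19 from -1.80 to -1.59, Cdh2 from 0.56 to 0.70 and Ctnnd1 from -0.71 to -0.54 on the log2 scale, called throughout. Library totals alone moved the median of all genes by 0.106 and the calls to 4999 higher and 3385 lower, against 4057 and 4205.

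Same-numbered libraries of the groups deviated together only weakly (r = 0.118, 0.0599 and 0.0248 over genes; 4 of 6 libraries correlated best with their own number), so the numbers were not taken as pairs. With the replicate number as a block, 7937 genes and 4 members were called. Depth limits Cdh3, Cdh4 and Cdh11.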
